A study of Mus musculus with 12 samples.

Results

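The comparison described here is that of 3 arrays of mouse eggs injected with siRNA against Dcp1a and 3 arrays of eggs injected with a control siRNA, out of 12 arrays in the series, taken by their titles. The eggs came from CF1 mice. Full-grown oocytes, still at the germinal vesicle stage, were microinjected, kept for 20 h in CZB medium with milrinone, which holds them in meiotic arrest, and then matured for 18 h without it to metaphase of the second meiotic division. All groups were injected and matured in this way, and each sample was an independent pool of 30 such eggs. The Dcp1a siRNA was a commercial pool of several siRNAs, the target of the control siRNA is not given in the labels, and protein was not measured. The other 2 groups, also of 3 arrays, received Dcp2 siRNA or a mixture of the Dcp1a and Dcp2 siRNAs, and they served here for the spread among replicates and for a comparison of the Dcp1a siRNA on top of Dcp2 siRNA.

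Most mRNAs are destroyed from the 5′ end once their cap has been removed. The enzyme that removes it is Dcp2, and Dcp1a is its cofactor, held together with it by scaffolds such as Edc4, while Dcp1b is a paralogue of Dcp1a. The full-grown oocyte no longer transcribes and carries a store of maternal mRNA. During maturation some of this store is degraded and some is recruited for translation from a dormant state, and Dcp1a and Dcp2 mRNAs are themselves in the recruited class. The comparison asks which mRNAs of the mature egg differ when Dcp1a has been depleted through maturation.

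A probe set is the array's unit of measurement for a transcript. Intensities are given as log2 values, on which a step of 1 is a factor of 2, and a probe set was tested if its log2 value was above 5 in at least 3 of the 12 arrays, which 11593 were. A gene was read by its tested probe set with the highest mean, which gave 6998 genes, unless another probe set is named or said to be used. Changes are differences of group means of log2 values, Dcp1a siRNA minus control, with the standard error (SE) of the limma fit over all 12 arrays, and a call means a Benjamini-Hochberg adjusted p under 0.05. Values are relative within an array, so that less of one mRNA per egg and fewer eggs holding it cannot be told apart, and a loss or gain of total mRNA is not seen. All 11 oocyte markers checked, among them Gdf9, Bmp15, Zp3 and Dppa3, were tested, with log2 values from 9.2 to 15.21 in the 6 arrays. Of 24 cumulus and granulosa cell markers 13 lay at the floor of the scale in all 6 arrays, and these included Fshr, Amh and Inha. Only Nr5a2 and Kitl exceeded an intensity of 32 in any array. The summed intensity of those 24 markers was 1670 to 2270 in control and 2490 to 2570 in Dcp1a siRNA arrays, most of it from Nr5a2, and its part in the results was not tested. For 18 markers of stroma, vessels and blood the summed intensity was 141 to 151 and 137 to 148.

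The control arrays were far more scattered than the Dcp1a siRNA arrays, and this precedes every result below. The SD among 3 replicate arrays had a median over the tested probe sets of 0.37 log2 units in control eggs and 0.16 after Dcp1a siRNA, and it was larger in control eggs for 9551 probe sets (82.4%). The median was 0.38 in the Dcp2 siRNA group and 0.27 in the double siRNA group. The Dcp1a siRNA arrays were thus the least scattered group of the series, and the control spread was close to that of the Dcp2 siRNA group. Control replicate 1 resembled the Dcp1a siRNA arrays (r from 0.978 to 0.988 across probe sets) more than it resembled the other control arrays (r of 0.938 and 0.954). Control replicates 2 and 3 had r from 0.958 to 0.972 with the Dcp1a siRNA arrays, and the highest r between any control arrays was 0.967. A closer likeness to the Dcp1a siRNA arrays than to control replicate 1 was therefore also seen for these. The array quality probe sets of control replicate 1 stood apart. The probe set for the middle of Gapdh mRNA read 7.53 in control replicate 1, 5.45 and 5.73 in the other control arrays, and 6.70, 6.54 and 6.79 after Dcp1a siRNA (log2). That for the middle of beta-actin mRNA read 6.18, 4.15 and 4.06 in control replicates 1 to 3 and 5.27, 4.91 and 5.10 after Dcp1a siRNA. On both, control replicate 1 was above all Dcp1a siRNA arrays and the other control arrays were below them. The part of these differences in the results was not tested, so results are given with and without control replicate 1.

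Dcp1a mRNA itself was low in every array that received its siRNA. The brightest of its 3 tested probe sets (1433606_at) had log2 values of 13.60, 12.39 and 12.98 in control eggs and 10.24, 9.20 and 10.27 after Dcp1a siRNA. The groups were separated by more than 2 units, and the change of -3.09 ± 0.42 (SE; 95% interval -4.01 to -2.17, adjusted p = 0.0319, limma) left 11.8% of the control level. Another probe set (1422131_at) was dim, with 5.19, 5.22 and 5.55 in control eggs, and fell to 2.49, 2.38 and 2.49, near the floor. Taking log2 5 as the lowest readable level, it was at least 1.25-fold lower, a bound that covers only the floor and leaves out replicate error (adjusted p = 0.00378, limma). The remaining Dcp1a probe set (1431933_a_at) was erratic, at 11.72, 8.12 and 4.69 in control eggs against 8.25, 6.89 and 8.01, and its change of -0.46 ± 1.66 was not called (adjusted p = 0.968, limma). Without control replicate 1 the brightest probe set changed by -2.78 (adjusted p = 0.0162, limma). Its call was lost on leaving out any 1 array except control replicate 1, Dcp2 siRNA replicate 2 and double siRNA replicate 2, although the change stayed between -3.39 and -2.74.

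Neither partner gene was called. Dcp1b was dim, at 5.08, 5.07 and 4.53 in control eggs and 5.07, 4.86 and 5.07 after Dcp1a siRNA, around the minimum in both groups, so no fold is given (adjusted p = 0.925, limma). Dcp2 was at 5.01, 4.93 and 6.35 in control eggs and 5.02, 5.62 and 5.84 after Dcp1a siRNA, a difference of 0.06 ± 0.34 with a 95% interval from -0.69 to 0.82 (adjusted p = 0.982, limma). The ranges overlapped for both genes, and for Dcp2 the interval allows changes up to nearly a factor of 2.

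**Figure D1:**
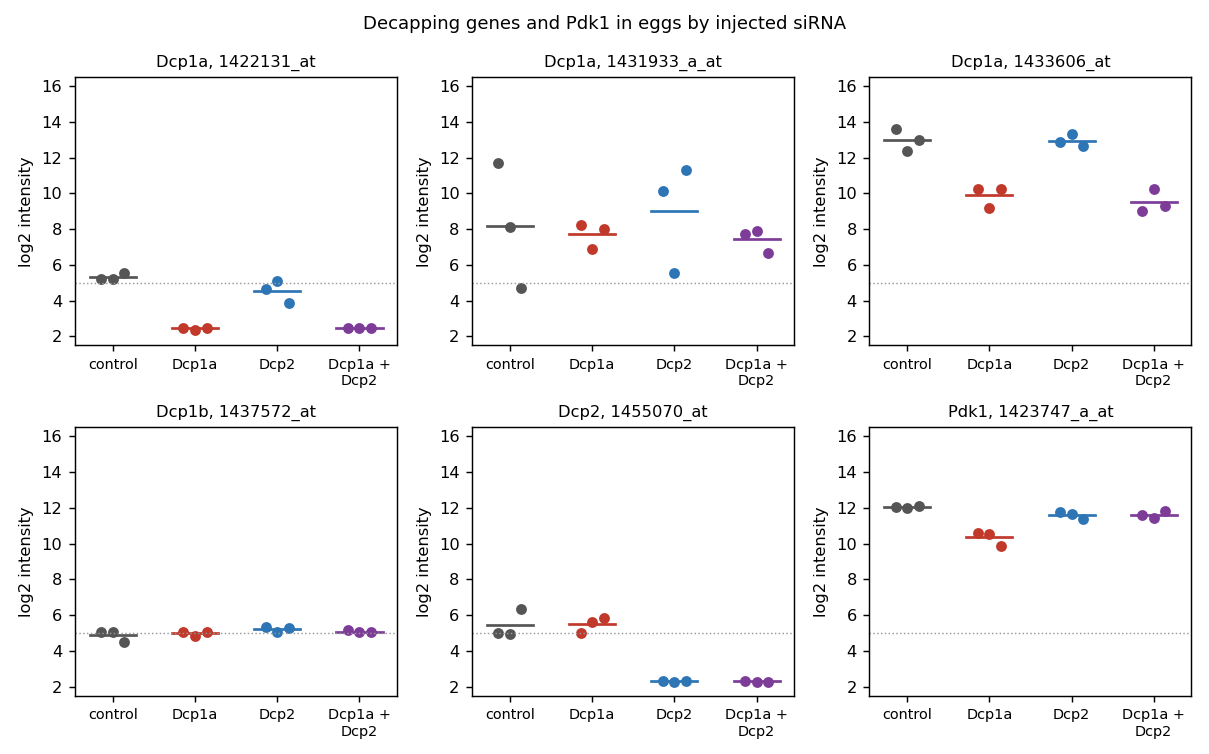
Log2 intensity of Dcp1a (3 probe sets), Dcp1b, Dcp2 and Pdk1 on each of the 12 arrays by injected siRNA (points, arrays; bars, group means; dotted line, the log2 value of 5 used as the minimum). The brightest Dcp1a probe set lies between 9.20 and 10.27 after Dcp1a siRNA and between 12.39 and 13.60 in control eggs. The Pdk1 probe set shown, the brightest, is lower after Dcp1a siRNA than in any other group.

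Besides Dcp1a, 4 genes passed the test. Of the 11593 probe sets, 2 were called higher (0.0173%) and 4 lower (0.0345%) after Dcp1a siRNA, 0.0518% in all, and 2 of the 4 lower ones belonged to Dcp1a. Pdk1 and Snx6 fell, and Uba6 and Syne1 rose. At an unadjusted p under 0.05 there were 345 higher and 225 lower probe sets (2.98% and 1.94%), and in 833 (7.19%) and 512 (4.42%) the groups of 3 did not overlap. With each array centred on its median the calls were 1 higher and 4 lower and the unadjusted counts 189 higher and 361 lower. The balance of directions at the unadjusted threshold therefore depended on the scaling. Median centring moved the median change of all genes from 0.10 to -0.02.

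Pdk1, which encodes a kinase that restrains pyruvate dehydrogenase and so the entry of pyruvate into the citric acid cycle, showed the clearest fall among genes that were not targeted. Its brightest probe set (1423747_a_at) read 12.07, 11.98 and 12.11 in control eggs and 10.60, 10.57 and 9.89 after Dcp1a siRNA. Control arrays were tight here, and the 3 Dcp1a siRNA arrays were all lower by more than a factor of 2. The change was -1.70 ± 0.21 (SE; 95% interval -2.17 to -1.23, adjusted p = 0.0291, limma), which left 30.8% of the control level. The other tested probe set of Pdk1 (1423748_at) read 8.27, 7.49 and 8.28 against 6.11, 6.73 and 6.37. It differed by -1.61 ± 0.52 without being called (adjusted p = 0.853, limma). Both probe sets thus had groups that did not overlap and similar differences.

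Snx6 encodes a sorting nexin that works with the retromer in retrieving cargo from endosomes. The probe set that was called (1447234_s_at) read 7.19, 7.75 and 7.83 in control eggs and 5.92, 5.35 and 4.93 after Dcp1a siRNA, a change of -2.19 ± 0.31 (SE; adjusted p = 0.0445, limma). The brightest Snx6 probe set (1425148_a_at) read 13.71, 14.38 and 13.98 against 13.76, 14.12 and 13.62, a difference of -0.19 ± 0.22 (adjusted p = 0.878, limma). The fall was therefore seen on a dim probe set and not on the bright one, whose groups overlapped. A Snx6 probe set too dim to be tested (1429497_s_at) read 3.35, 3.28 and 4.26 in control eggs and 2.66, 2.66 and 2.66 after Dcp1a siRNA. Another such (1451602_at) read 3.23, 2.61 and 4.92 against 2.38, 2.61 and 2.29.

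Uba6 encodes an enzyme that activates ubiquitin and the ubiquitin-like protein FAT10. Its only tested probe set (1428944_at) sat at the floor in control eggs, at 2.29 on all 3 arrays, and read 6.13, 5.8 and 5.55 after Dcp1a siRNA. It was at least 1.78-fold higher against the minimum of 32 units (adjusted p = 0.0291, limma). A pair of Uba6 probe sets too dim to be tested differed in the same direction. One read 2.79, 2.77 and 3.02 in control eggs and 4.41, 4.67 and 3.75 after Dcp1a siRNA, and the other 2.85 on all 3 control arrays and 3.42, 3.63 and 3.60. The remaining 2 Uba6 probe sets lay between 2.29 and 2.54 on all 6 arrays.

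Syne1 encodes nesprin-1, a giant protein of the nuclear envelope that links it to the cytoskeleton. Its tested probe set (1455225_at) read 4.27, 4.37 and 4.38 in control eggs and 5.33, 5.71 and 5.93 after Dcp1a siRNA, at least 1.58-fold above control by the same bound (limma, adjusted p = 0.0319). The replicates of each group were close, but all 6 values were near the minimum. With values under 32 raised to 32 the calls of Uba6 and Syne1 were lost (adjusted p = 0.839 for each, limma), as was that of the dim Dcp1a probe set. All 6 calls held without control replicate 1. Pdk1 and Uba6 lost theirs on leaving out control replicate 2 or 3, any Dcp1a siRNA array, Dcp2 siRNA replicate 1 or double siRNA replicate 1. Snx6 and Syne1 kept theirs only on leaving out control replicate 1 or Dcp2 siRNA replicate 2 or 3, while the dim Dcp1a probe set kept its call in all 12 such fits.

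**Figure D2:**
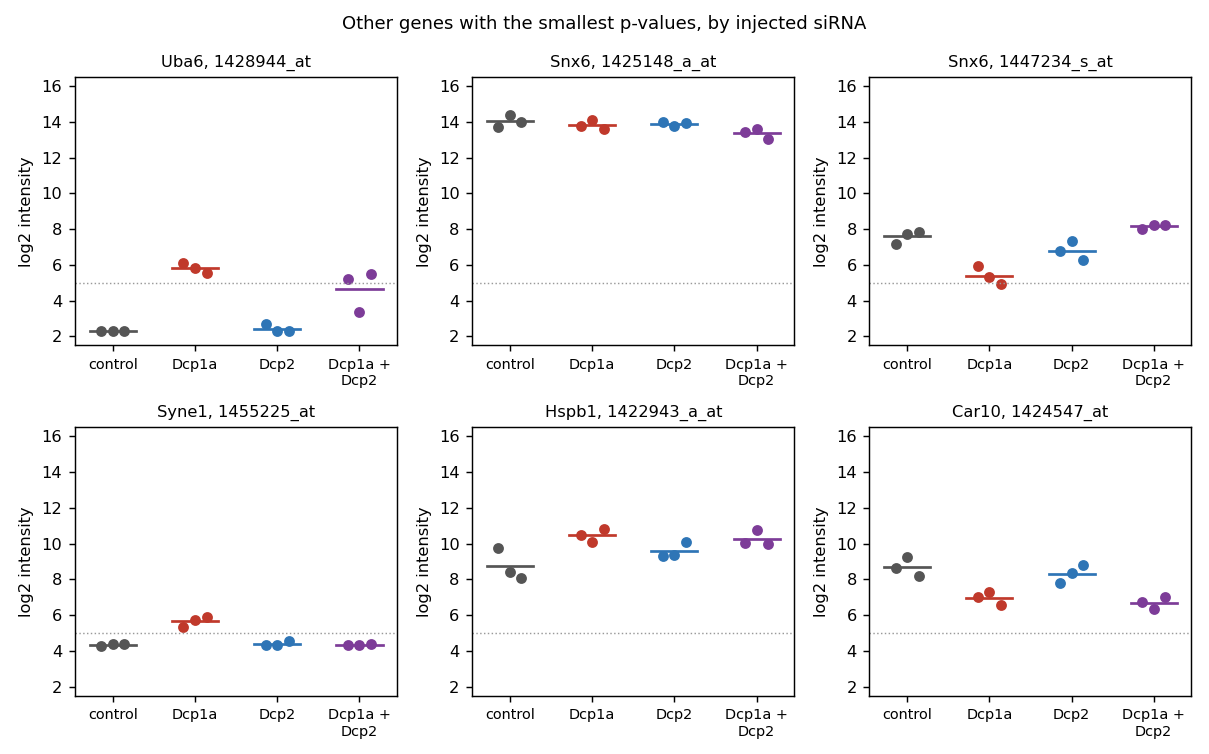
Log2 intensity of Uba6, both tested probe sets of Snx6, Syne1, Hspb1 and Car10 on each of the 12 arrays by injected siRNA (points, arrays; bars, group means; dotted line, log2 value of 5). Uba6 is at the floor in control eggs and between 5.55 and 6.13 after Dcp1a siRNA. The dim Snx6 probe set is lower after Dcp1a siRNA than in any other group, while the bright one stays near 14.

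The genes next in order of p did not pass the test, and their values are given without a claim of change. Among those with higher means was Hspb1, a small heat shock protein that binds unfolding proteins. It read 9.75, 8.41 and 8.11 in control eggs and 10.50, 10.08 and 10.82 after Dcp1a siRNA, a difference of 1.71 ± 0.41 (SE; adjusted p = 0.853, limma), and its other probe set differed by 1.53 ± 0.39. Without control replicate 1 Hspb1 was called, at 2.20 (adjusted p = 0.0151, limma). Slc14a1, a urea transporter, differed by 1.00 ± 0.20, from 6.92 to 7.19 in control eggs to 7.85 to 8.34. That was not its brightest probe set, which differed by 0.85 ± 0.39. The sterol carrier gene Stard4 differed by 1.18 ± 0.31, and its other tested probe sets by 1.09 ± 0.43 and -0.13 ± 0.40. Gpcpd1, which breaks down glycerophosphocholine, differed by 0.72 ± 0.18, Nob1, the endonuclease that finishes 18S ribosomal RNA, by 0.72 ± 0.20, and Ighm by 0.69 ± 0.19. For Gpcpd1 and Ighm these were not the brightest probe sets. The brightest of Gpcpd1 differed by 0.26 ± 0.40, and the other tested Ighm probe sets by -0.04 to 0.36. Gse1 was partly under the minimum in control eggs. Its mean was at least 2.22-fold higher by the floor bound, which leaves out replicate error. Gse1 and Slc14a1 were also called without control replicate 1 (adjusted p = 0.00749 and 0.0391, limma). These 7 genes had adjusted p between 0.611 and 0.853 (limma), and groups that did not overlap were a condition for naming them.

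On the lower side the closest to the threshold was Car10, a carbonic anhydrase-related protein without enzyme activity. It read 8.62, 9.24 and 8.19 in control eggs and 7, 7.3 and 6.59 after Dcp1a siRNA, a difference of -1.72 ± 0.33 (SE; adjusted p = 0.488, limma). Hspa1b, the inducible 70-kilodalton heat shock protein, read 5.69, 6.11 and 6.44 against 3.72, 3.26 and 3.63, so that its mean was at least 2.11-fold lower (adjusted p = 0.704, limma). The heat shock genes Hspb1 and Hspa1b thus lay on opposite sides. Both Car10 and Hspa1b were called without control replicate 1 (adjusted p = 0.0437 and 0.0462, limma). Cnpy1 differed by -1.12 ± 0.24, Grina by -0.91 ± 0.22, Sumf1, which activates sulfatases, by -0.85 ± 0.17, the dynactin subunit Dctn6 by -0.84 ± 0.20 and the protein repair enzyme Pcmt1 by -0.82 ± 0.19. For these 5 the adjusted p lay between 0.611 and 0.853 (limma), and all but Dctn6 were called without control replicate 1 (adjusted p from 0.0151 to 0.048, limma). The other tested probe sets of Cnpy1, Sumf1, Dctn6 and Pcmt1 differed less, by -0.37 to -0.11.

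Genes of the decapping machinery other than Dcp1a were not called. Of 19 decapping genes tested 1 was called (Dcp1a, lower), against 2 higher and 2 lower of all 6998 genes (0.0286% each). The median change was 0.10, equal to that of all genes, and the interval lay within 1 log2 unit of 0 for 13 of the 19, against 62.1% of all genes. The scaffold Edc4 was steady, at 12.80, 12.45 and 12.50 in control eggs and 12.67, 12.70 and 12.70 after Dcp1a siRNA (difference 0.11 ± 0.16). The RNA granule proteins Lsm14b and Lsm14a were the brightest of the list, and differed by 0.22 ± 0.18 and -0.01 ± 0.20. The helicase Ddx6, an activator of decapping, differed by 0.51 ± 0.24. The exonuclease Xrn1, which degrades decapped mRNA, read 6.17, 4.69 and 4.88 in control eggs and 5.73, 5.6 and 6.24 after Dcp1a siRNA, with overlapping groups and a mean at least 1.38-fold higher. Of the Lsm ring that binds shortened tails, Lsm1 differed by 0.41 ± 0.19, Lsm3 by 0.56 ± 0.24, Lsm7 by 0.14 ± 0.28 and Lsm6 by -0.48 ± 0.57, while Lsm4 had means under the minimum in both groups. Patl1, which bridges the ring to the decapping enzyme, and the related Patl2 differed by 0.10 ± 0.25 and -0.03 ± 0.41. Xrn2, Pnrc1, Eif4enif1 and the scavenger decapping enzyme Dcps differed by 0.04 to 0.18. Only Dcp1a and Lsm3 of the list had an unadjusted p under 0.05.

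Other branches of mRNA decay held no call. None of 21 genes for deadenylases and their recruiters passed, none reached an unadjusted p of 0.05, and the median change was 0.22. Cnot7, a catalytic subunit of the CCR4-NOT deadenylase, read 15.37, 15.28 and 15.34 in control eggs and 15.35, 15.34 and 15.42 after Dcp1a siRNA. Btg4, the adaptor that brings this deadenylase to maternal mRNA, read 15.00, 15.10 and 14.94 against 15.01, 15.10 and 15.12. The values of both genes agreed within 0.2 units over the 6 arrays, near the top of the scale, where the highest value of any tested probe set was 16.58. Cnot6l differed by 0.45 ± 0.23 and Nanos1 by 0.40 ± 0.18. Of 18 genes for the exosome, nonsense-mediated decay and ribosome rescue none passed either (0 at an unadjusted p under 0.05, median 0.10). Among these, the helicase Upf1 differed by 0.45 ± 0.22, Upf2 by -0.24 ± 0.22, and the exosome subunits Exosc9 and Exosc1 by -0.46 ± 0.26 and -0.11 ± 0.32.

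Among the stored and recruited maternal messages only Dcp1a was called with all arrays. For 25 dormant mRNAs recruited at maturation the median change was 0.22. The interval lay within 1 log2 unit of 0 for 19 of them (76%), against 62.1% of all genes. For genes of storage and translation control this share was 66.7%. Without control replicate 1, Mos and Tpx2 were called higher (1.14 each, adjusted p = 0.0311 and 0.0302, limma). The share called higher without that array was 2.86% over all genes. Mos, the kinase that holds the egg at metaphase, read 14.22, 12.35 and 12.96 in control eggs and 13.67, 13.73 and 14 after Dcp1a siRNA, and its difference of 0.62 ± 0.37 lay within the control spread. Plat, tissue plasminogen activator, read 13.76, 13.17 and 13.63 against 13.70, 13.89 and 14.02. The cyclin gene Ccnb2 differed by 0.42 ± 0.24, the spindle gene Tpx2 by 0.58 ± 0.39, Cdc20, an activator of the anaphase-promoting complex, by -0.07 ± 0.19, and Wee2, a kinase that inhibits Cdk1, by -0.05 ± 0.14. Dazl, an RNA-binding protein that promotes translation of such messages, had separate groups. It read 11.43, 11.67 and 11.50 in control eggs and 12.28, 12.37 and 12.62 after Dcp1a siRNA, a difference of 0.89 ± 0.36 that was not called (adjusted p = 0.853, limma). The 27 genes for storage and translation control had no call, 2 higher at an unadjusted p under 0.05 (Dazl and Igf2bp3, at 0.60 ± 0.27) and a median of 0.11. At that threshold 3.07% of all genes were higher. Without control replicate 1 Igf2bp3 was called higher (0.95, adjusted p = 0.0275, limma). With all arrays its other tested probe sets differed by -0.18 to 0.59, and the other Dazl probe set by 0.38 ± 0.44. Zar1, which keeps maternal mRNA in store, differed by 0.41 ± 0.22.

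Genes of the egg coat and surface, maternal-effect genes and meiotic genes had no call with all arrays. For the 15 genes of the zona pellucida, egg surface and gap junction the median change was 0.31, with 0 at an unadjusted p under 0.05 and 7 intervals within 1 log2 unit of 0 (46.7%, against 62.1% of all genes). Zp3 read 11.21, 9.52 and 11.84 in control eggs and 11.28, 11.22 and 11.36 after Dcp1a siRNA, with control replicate 2 the low array. Astl and Oosp2 differed by 0.34 ± 0.22 and 0.36 ± 0.24. For 50 maternal-effect and oocyte-defining genes the median was 0.19, with 2 higher at an unadjusted p under 0.05, Ago2 (0.57 ± 0.21) and Sohlh2 (0.61 ± 0.23). Spin1 and Bcl2l10, among the brightest, differed by 0.02 ± 0.13 and 0.06 ± 0.14. In 61 meiotic cell cycle and spindle genes the median was 0.20 and Ccne2 (-0.62 ± 0.24) had an unadjusted p under 0.05. At that threshold 3.07% of all genes were higher and 1.84% lower. Without control replicate 1, 3 maternal-effect genes were called higher, namely Ago2 (0.84, adjusted p = 0.0218, limma), Brwd1 (0.95) and the histone methyltransferase gene Kmt2b (1.76). Of the meiotic genes 4 were, namely Mos, Tpx2 and the mitotic kinases Aurka (0.86) and Plk1 (1.13). Of the egg coat and surface genes 0 were, and of all 6998 genes 2.86% were. The medians of these groups stayed above 0 under 3 other scalings (median centring, quantiles and cyclic loess), while those of the decapping, exosome and storage lists came to between -0.02 and 0.03. Those of the deadenylase and dormant mRNA lists also stayed above 0, at 0.10 to 0.14. The array means of the egg coat and surface list were 10.33, 9.73 and 10.40 in control eggs and 10.25, 10.28 and 10.44 after Dcp1a siRNA. They were 11.62, 11.20 and 11.59 against 11.64, 11.66 and 11.68 for maternal-effect genes. For meiotic genes they were 10.01, 9.59 and 9.95 against 9.95, 10.04 and 10.11. Control replicate 2 was therefore the low array in each of these lists, and the other control arrays lay near the Dcp1a siRNA arrays. The same array was low over all genes, with means of 8.63, 8.44 and 8.62 in control eggs against 8.63, 8.67 and 8.69.

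Genes of the ribosome and the mitochondrion had no call in either direction with all arrays, and their medians were negative under each scaling. The median change was -0.20 for 38 cytosolic ribosomal protein genes, -0.16 for 67 genes of oxidative phosphorylation and -0.06 for 60 mitochondrial ribosomal protein genes, against 0.10 for all genes. In each of the 3 lists 2 genes were lower and 0 higher at an unadjusted p under 0.05, against 1.84% lower and 3.07% higher of all genes. Rps20 read 9.31, 10.03 and 10.65 in control eggs and 9.28, 9.28 and 9.36 after Dcp1a siRNA (-0.69 ± 0.28). Rps7 differed by -0.59 ± 0.22, the mitochondrial ribosomal genes Mrpl9 and Mrpl52 by -0.86 ± 0.25 and -0.86 ± 0.32, and the respiratory chain genes Ndufb7 and Cox7a2l by -1.03 ± 0.43 and -0.83 ± 0.31. The array mean of the cytosolic ribosomal list was 8.74, 8.76 and 9.45 in control eggs and 8.74, 8.85 and 8.71 after Dcp1a siRNA. Control replicate 3 was therefore the high array, and the other control arrays lay at the level of the Dcp1a siRNA arrays. The list of oxidative phosphorylation had 8.02, 8.24 and 8.73 against 8.13, 8.24 and 8.15, with the same control array highest. Without control replicate 1, Rps20 (-1.03, adjusted p = 0.0354, limma), Ndufb7 (-1.65, adjusted p = 0.0143) and Cox7a2l (-1.20, adjusted p = 0.0382) were called lower, and Rplp0, a protein of the ribosomal stalk, was called higher (1.57, adjusted p = 0.0263). The shares called without that array were 2.86% higher and 0.357% lower over all genes.

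The remaining lists gave no call. Of 33 proteasome genes (median 0.15) Psmd6 and Psmc4 were lower at an unadjusted p under 0.05, by -0.81 ± 0.22 and -0.57 ± 0.22. Their other tested probe sets differed by -0.18 ± 0.23 and -0.04 ± 0.22. Of 17 histone and histone chaperone genes (median 0.11) Hira was higher (0.46 ± 0.15) and H2aj lower (-0.73 ± 0.31) at that threshold. Of 19 genes of p53, apoptosis and stress (median -0.06) Hspa1b and Atf4 (-0.99 ± 0.44) were lower. The other tested Atf4 probe set differed by -0.16 ± 0.29. Over all genes 3.07% were higher and 1.84% lower at the same threshold. None of 7 interferon and double-stranded RNA response genes reached it (median -0.16), and Ddx58 and Mavs, sensor and adaptor of the response to double-stranded RNA, differed by -0.05 ± 0.15 and -0.16 ± 0.15. The RNA-editing enzyme Adar had the smallest p of the list and the opposite sign. It read 5.92, 3.95 and 4.14 in control eggs and 5.15, 5.15 and 5.74 after Dcp1a siRNA, at least 1.02-fold higher (adjusted p = 0.853, limma), and was called higher without control replicate 1 (adjusted p = 0.0354, limma). Hspa1b was the only other call in these 4 lists without that array, where the shares over all genes were 2.86% higher and 0.357% lower. For 6 of the 7 interferon and double-stranded RNA response genes the interval lay within 1 log2 unit of 0, against 62.1% of all genes.

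**Figure D3:**
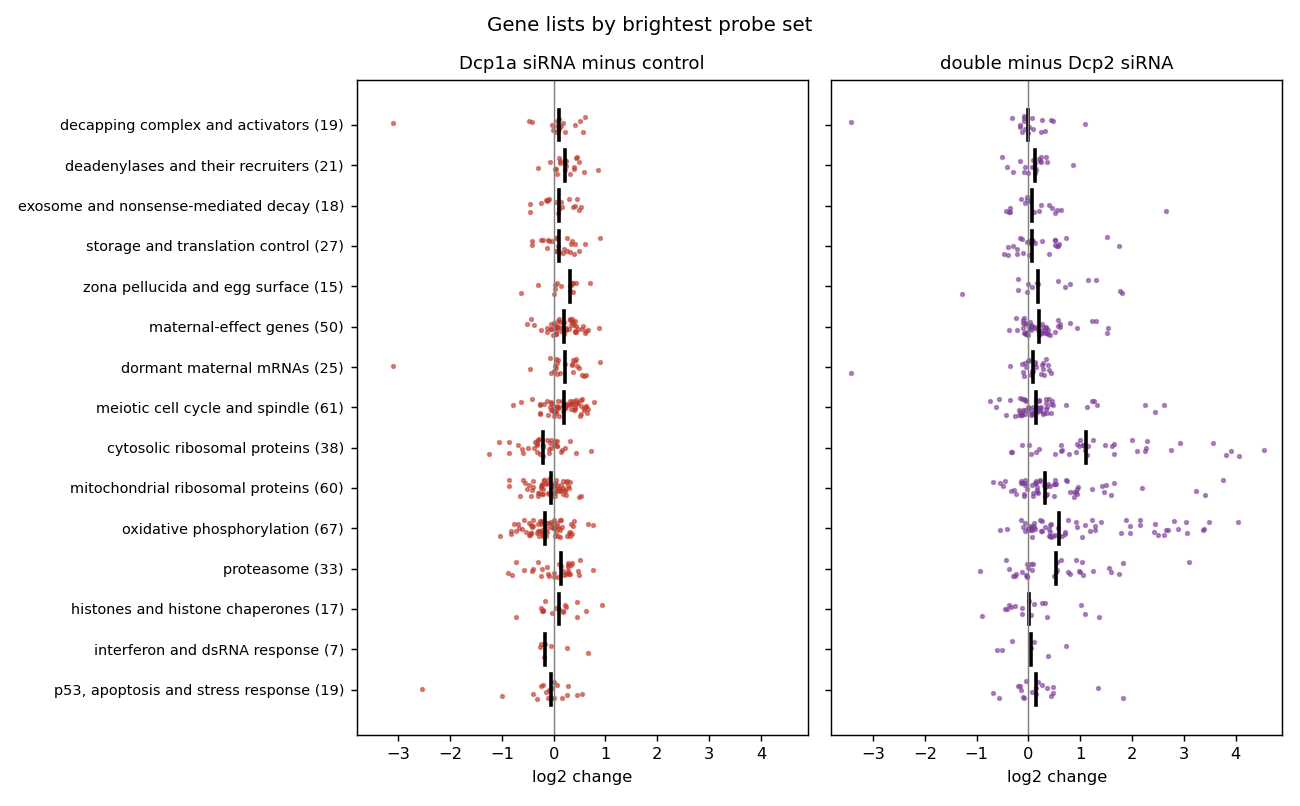
Log2 change of each gene (points) and median (bar) for 15 gene lists, with the number of genes tested in brackets. Left, Dcp1a siRNA minus control; right, double siRNA minus Dcp2 siRNA. Medians on the left run from -0.20 to 0.31, and on the right the cytosolic ribosomal proteins have the highest median, 1.12.

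Leaving out control replicate 1 changed the number of calls from 6 to 372, of which 331 were higher (2.86%) and 41 lower (0.354%) after Dcp1a siRNA. In 358 of these 372 probe sets control replicate 1 was nearer to the Dcp1a siRNA mean than to the mean of the other control arrays, a position that their selection favours. The same held for 8139 of all 11593 tested probe sets (70.2%). Of genes by their brightest probe set, 200 were called higher (2.86%) and 25 lower (0.357%). Acvr2b, an activin receptor, is an example with a large change, chosen after its values were seen. It read 7.70 in control replicate 1, 4.42 and 5.58 in the other control arrays and 7.49, 7.20 and 7.49 after Dcp1a siRNA. Leaving out any other control array or any Dcp1a siRNA array left 1 call, that of the dim Dcp1a probe set.

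**Figure D4:**
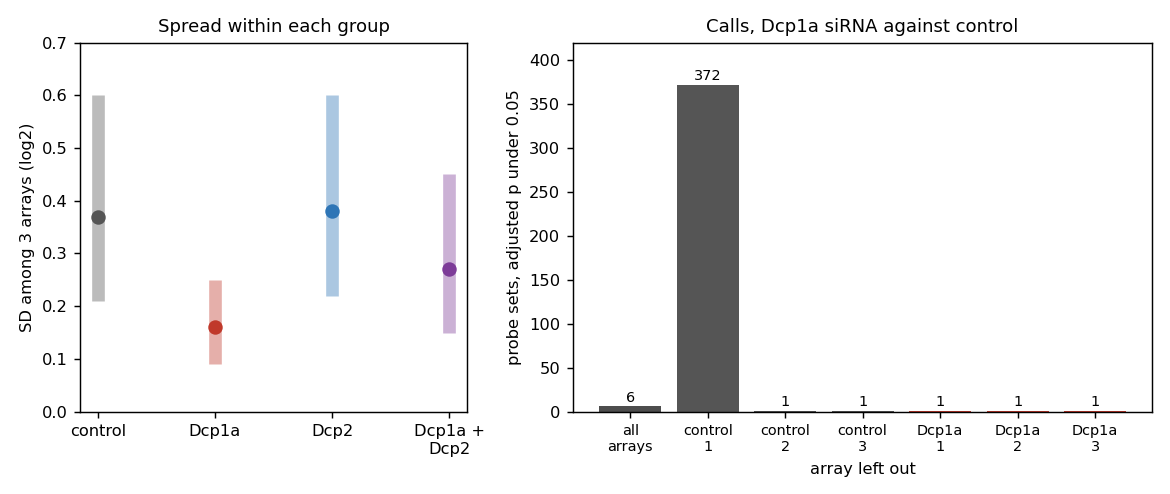
Left, SD among the 3 replicate arrays of each group over 11593 probe sets (points, medians; bars, interquartile range). Right, number of probe sets called between Dcp1a siRNA and control with all arrays and with 1 array left out, which is 6 with all arrays, 372 without control replicate 1 and 1 without any of the other 5 arrays shown.

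The same siRNA could be examined a second time, on top of Dcp2 siRNA, by comparing the double with the Dcp2 siRNA group. This comparison shares no array with that against control eggs, although both use the spread of the common fit. Dcp1a was lower there by -3.42 ± 0.42 (SE; adjusted p = 0.000681, limma), and its effect did not differ detectably from that without Dcp2 siRNA (difference -0.33 ± 0.59, adjusted p = 0.96, limma). In all, 710 probe sets were higher (6.12%) and 29 lower (0.25%) on top of Dcp2 siRNA. Of the 225 probe sets that were lower against control at an unadjusted p under 0.05, 3 (1.33%) were also called lower there, which is 10.3% of the 29. These were 2 probe sets of Dcp1a and that of Car10. Car10 read 7.81, 8.36 and 8.81 with Dcp2 siRNA and 6.73, 6.37 and 7.02 with both, a change of -1.62 ± 0.33 (adjusted p = 0.0129, limma). Of the 345 that were higher against control 4 (1.16%) were called higher there, 0.563% of the 710, namely Uba6, Fasn, Ndufa3 and Rps4l. Uba6 read 2.72, 2.29 and 2.29 with Dcp2 siRNA and 5.19, 3.34 and 5.49 with both (adjusted p = 0.0115, limma). Fasn, fatty acid synthase, differed by 0.74 ± 0.21 against control and changed by 0.84 ± 0.21 on top of Dcp2 siRNA (adjusted p = 0.0401, limma).

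Of the 4 other genes called against control, Pdk1, Syne1 and Snx6 did not repeat their change on top of Dcp2 siRNA. The brightest Pdk1 probe set read 11.75, 11.64 and 11.38 with Dcp2 siRNA and 11.58, 11.45 and 11.81 with both, and its effects in the 2 settings differed (difference 1.73 ± 0.30, adjusted p = 0.01, limma). The other tested one (1423748_at) read 6.16, 7.57 and 5.57 with Dcp2 siRNA and 6.69, 6.28 and 7.88 with both. Its control arrays read 8.27, 7.49 and 8.28, so it was also low on Dcp2 siRNA replicates 1 and 3. Syne1 lay under the minimum of 5 in both groups there, and its fitted effects also differed (difference -1.38, adjusted p = 0.0115, limma). With values under 32 set to 32 that difference was -0.66 and no longer called (adjusted p = 0.205, limma). The dim Snx6 probe set rose there by 1.37 (adjusted p = 0.0231, limma), opposite to its fall without Dcp2 siRNA (difference 3.56, adjusted p = 0.00176, limma). The brightest Snx6 probe set differed there by -0.53 and so did not share the rise. The difference between the settings was called upward in 452 probe sets (3.9%) and downward in 4 (0.0345%), namely those of Syne1, Hira, Stk36 and Gm10512. Of the 225 probe sets lower against control, 58 (25.8%) were called higher on top of Dcp2 siRNA, which is 8.17% of the 710. Of the 345 higher against control 0 were called lower there. The cytosolic ribosomal protein list, with no call against control, had 18 of 38 genes called higher on top of Dcp2 siRNA and 13 with a difference between the settings. For oxidative phosphorylation these numbers were 23 and 20 of 67, and for mitochondrial ribosomal proteins 12 and 11 of 60, against 412 (5.89%) and 260 of all 6998 genes. Over all tested probe sets the median change was 0.09 against control and 0.06 on top of Dcp2 siRNA, and 56.1% of probe sets had the same sign in both. The changes in the 2 settings had a Pearson r of -0.135 across the 11593 probe sets, which are not independent replicates.

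**Figure D5:**
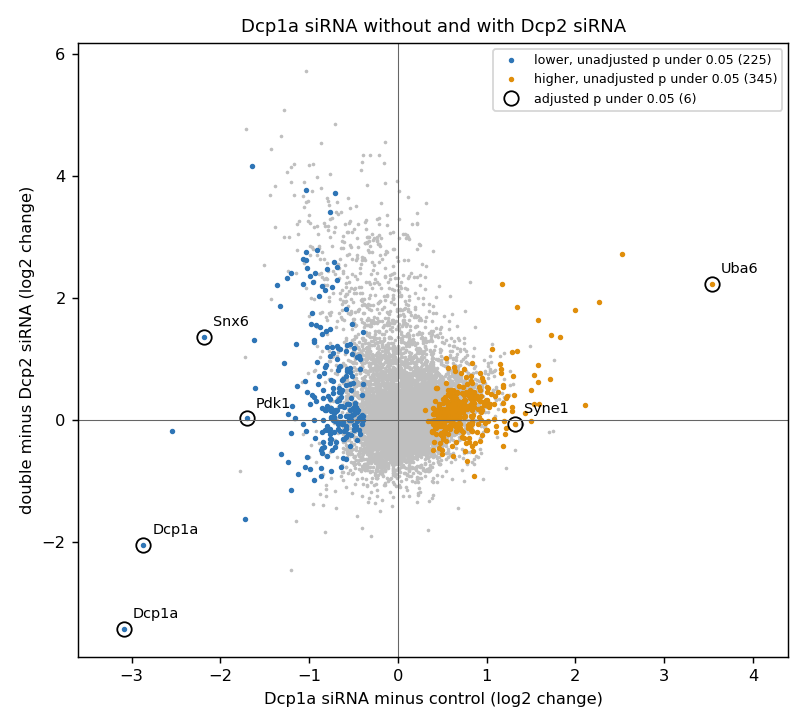
Log2 change of each tested probe set (points) after Dcp1a siRNA against control (horizontal) and on top of Dcp2 siRNA (vertical), with the 225 lower and 345 higher at an unadjusted p under 0.05 coloured and the 6 called ones circled. Both circled Dcp1a probe sets are low on both axes and Uba6 is high on both, while Pdk1 and Syne1 lie near 0 on the vertical axis and Snx6 above it.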

How the data were processed

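RNA was amplified and labelled for Affymetrix mouse arrays by the small-sample protocol, per the labels. The deposited table gave 1 linear intensity per probe set and array, made by the authors with GCRMA, a method that corrects background by probe sequence, per the submitters' processing notes. It compresses weak signals to a floor (55.6% of values did not exceed 5 units), which affects folds of dim probe sets. The number of arrays limits precision.

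Log2 intensities of 11593 of 45037 probe sets (64 control probe sets aside) passed the minimum of 5 in at least 3 arrays. Names came from the platform annotation, with 34945 probe sets of 1 symbol, 932 of several and 9160 without, and 34741 matched the RefSeq table of GRCm38.p6. Group means were fitted with limma 3.58.1 in R 4.3.3 (lmFit, eBayes without trend, 8 residual and 2.97 prior degrees of freedom), two-sided, adjusted by Benjamini-Hochberg over all tested probe sets. The procedure was tested on simulated data. Where the dimmer group's mean or median did not exceed 5, the fold is a bound that leaves out replicate error.

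Named were Dcp1a, Dcp1b, Dcp2, up to 12 called genes each way with 1 symbol and separate groups, those of smallest p up to 10 each way, and from each list the called genes or the 2 of smallest p, and the 2 brightest. Not every gene so named is printed. Further decapping and dormant mRNA genes, Zp3, Acvr2b and the genes shared or opposed between both settings were added after their values were seen. Members and lists were chosen with earlier results of these data known. Replicate numbers are not stated to mark shared batches, and the main fit did not pair samples by them. Deviations from the group mean correlated at 0.26, 0.25 and 0.01 between control and Dcp1a siRNA arrays of the same number. Those numbered 1 were each other's best match, control replicate 2 matched its own number best, and those numbered 3 did not match best. Whether arrays of the same number share a batch was not tested.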

Additional observations from a re-analysis of the deposited data

Results flagged for a closer look

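For 13 named genes the effect of Dcp1a siRNA differed by the test of the difference itself, on top of Dcp2 siRNA minus without it (log2, adjusted p from 0.00176 to 0.043, limma). Syne1, Snx6 and Pdk1 were called against control, the others not. The differences were -1.38 for Syne1, whose fitted value rests on arrays under the minimum and was -0.66 (adjusted p = 0.205, limma) with values under 32 set to 32, 3.56 for the dim Snx6 probe set, 1.73 for Pdk1, 1.05 for Sumf1 and 1.87 for Grina. Ribosomal protein genes followed with 1.72 for Rps7 and 2.98 for Rps20, and the mitochondrial genes Mrpl52 and Ndufb7 with 2.28 and 3.65. The proteasome genes Psmd6 and Psmc4 had 1.72 and 1.38, and the histone and chaperone genes H2aj and Hira 1.83 and -0.91. In 11 of the 13 the difference was upward. Those 11 had lower means against control, and Syne1 and Hira higher ones. The genes were named by that change, which is subtracted in the difference, so their selection favours these directions. Over all tested probe sets the difference was called upward in 452 (3.9%) and downward in 4 (0.0345%). For Ndufb7 the arrays read 5.17, 6.83 and 7.24 in control eggs and 5.41, 5.27 and 5.47 after Dcp1a siRNA, against 6.45, 6.49 and 6.34 with Dcp2 siRNA and 9.03, 9.42 and 8.67 with both, so that control replicate 1 lay at the level of the Dcp1a siRNA arrays.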

How the results depend on the processing

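Against control eggs 6 probe sets were called, 2 with the spread taken from the 6 arrays compared, 0 with values under 32 set to 32 (374 higher and 224 lower at an unadjusted p under 0.05, limma), 1 without a filter on low values, 0 with log2 above 5 required in 6 arrays (325 and 218 unadjusted), 1 with array quality weights, 1 with the replicate number as a block and 1 to 372 on leaving out 1 array. The 1 without a filter was an unnamed probe set at 4.9 and 5 units. On top of Dcp2 siRNA 739 were called, 489 without the filter, 6563 with weights and 471 to 863 on leaving out 1 array. The difference between settings had 456, 160 without the filter, 259 with 6 arrays, 1385 with weights and 252 to 626. The weights stopped before convergence, from 0.189 to 56.1, and are no usable setting. With the replicate block the last 2 counts were 615 and 331. The Dcp1a change of -3.09 lost its call in the same 6 settings, at -2.99 with weights and -3.09 in the others (adjusted p from 0.0751 to 0.472, limma), and ran from -3.39 to -2.74 on leaving out 1 array. The cause was not tested. For the other 5 called probe sets 50 alternatives kept the call and 57 lost it, and none turned the direction.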
